A study of Mus musculus with 10 samples.

Results

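Itch in skin depends on mediators made by skin and immune cells, on receptors and ion channels that detect them, and on growth factors that keep sensory nerve endings alive and sensitive. The 8 genes described here cover these roles, and all 8 were found among the 19175 genes of the table by their symbols, without a threshold on any measured value. Bdnf, Gdnf and Artn encode secreted neurotrophic factors. Edn1 encodes endothelin 1, a peptide that constricts vessels and evokes itch, and F2rl1 encodes PAR2, a receptor switched on by proteases. Trpv1, Trpv3 and Trpv4 encode cation channels of the vanilloid TRP family.

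The samples were skin of C57BL/6 mice in the MC903 model, in which the vitamin D analogue calcipotriol gives an itchy, atopic-like dermatitis. In the CKO mice (n = 5) Vamp7, which encodes a SNARE protein of vesicle fusion, was conditionally knocked out in basophils. Their controls, labelled basophils VAMP7 Flox and also WT (Flox, n = 5), carried the floxed gene. Since MC903 was common to both groups, its own effect cannot be read from these libraries. Not given in the sources used here are the Cre driver, the age of the mice, the day of sampling and whether each library is 1 animal. The p-values therefore measure the spread between these libraries, which may be technical.

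Background on these molecules is well established. Neurotrophins such as BDNF act on Trk receptors and on the shared receptor p75. The GDNF family, which includes artemin, acts on GFRα co-receptors joined to the kinase RET. Endothelin 1 is cut from its precursor by the enzyme Ece1 and binds the receptors Ednra and Ednrb, while PAR2 is cut open by skin proteases such as kallikreins. TRPV1 is best known from the sensory neurons that carry pain and itch, whose cell bodies lie outside the skin, and TRPV3 and TRPV4 are also channels of keratinocytes.

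Values are FPKM (fragments scaled to transcript length and library size), so levels can be compared between genes, and they summed to 525369 to 581022 per library. The table holds FPKM only, so depth is unknown and no counting interval is given. Vamp7 itself was at 18.3 ± 0.773 FPKM in CKO, against 19.5 ± 1.74 FPKM in Flox (SD, n = 5 each). Whole skin holds many other cells that express Vamp7, so this does not check a label. The 6 keratinocyte markers summed to 4630 to 6525 FPKM in CKO, against 4551 to 6551 FPKM in Flox, so the markers of the labelled tissue were present, and 6 of 10 sensory neuron markers averaged under 0.1 FPKM. CKO replicate 1 stood apart: limma's quality weight for it was 0.272, while the other 9 had 0.561 to 2.12, and its skeletal muscle markers summed to 993 FPKM. The muscle sum was 252.2 to 993 FPKM in CKO, against 158 to 269 FPKM in Flox, with a positive log2 fold change for all 7 tested markers, of which 0 passed the test used below (limma). The sum of 5 basophil markers was 67.9 to 107 FPKM in CKO, against 224 to 275 FPKM in Flox. In bulk RNA, fewer cells of a type and less RNA per cell cannot be told apart.

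The 8 genes spanned a wide range of levels, some of them separate and some overlapping. Trpv4 was the most abundant at 10.1 to 15.4 FPKM over the 10 libraries, and was above F2rl1 in 10 of 10. F2rl1 (3.33 to 6.73 FPKM) and Trpv3 (2.93 to 5.09 FPKM) overlapped, with F2rl1 the higher in 6 of 10 libraries. Edn1 followed at 1.72 to 3.70 FPKM and was below Trpv3 in every library, although their ranges overlapped. Artn and Gdnf had the same mean of 0.797 FPKM and could not be ordered. Bdnf, at a mean of 0.538 FPKM, was below Gdnf in 9 of 10 libraries with overlapping ranges. Trpv1 was lowest, at 0.04 to 0.22 FPKM, and the Trpv4 mean was 106 times as large as the Trpv1 mean. By mean level Trpv4 lay at percentile 67.8 of all genes in the table and Trpv1 at percentile 17.5.

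**Figure D1:**
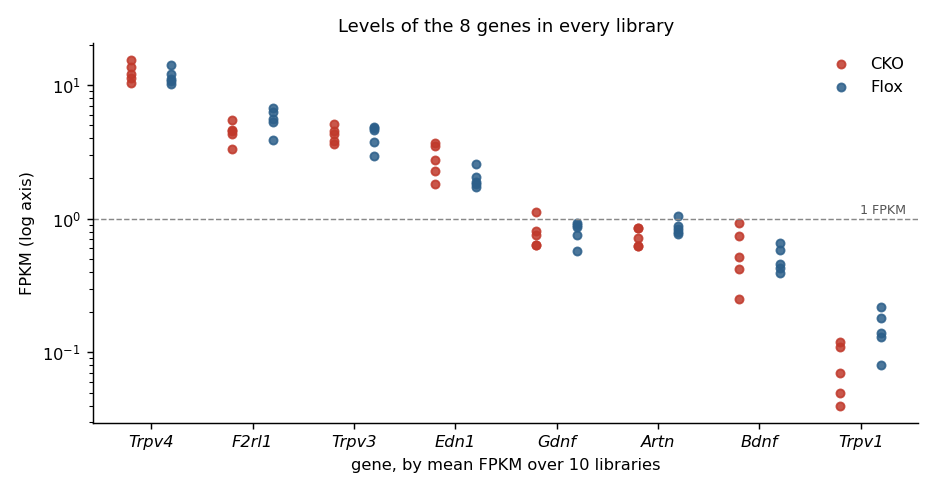
FPKM of each gene in each of the 10 libraries (points, CKO left of Flox) on a log axis, ordered by mean; the dashed line is at 1 FPKM. Trpv4, F2rl1, Trpv3 and Edn1 lie above 1 FPKM in every library, and Trpv1 lies below 0.25 FPKM, the lowest value of Bdnf.

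None of the 8 genes passed the test between CKO and Flox. Of the 4 that reached 1 FPKM in 5 or more libraries (Edn1, F2rl1, Trpv3 and Trpv4, each above 1 FPKM in 10 of 10), 0 had an adjusted p under 0.05 in limma, where 0.106% of all 13186 genes tested did. At an unadjusted p under 0.05 there was 1 of 4, Edn1, on the higher side, against 15.1% of all genes in either direction and 4.78% on the higher side. The median log2 fold change (CKO over Flox, on the log2(FPKM + 1) scale) was 0.065 over these 4 genes, of which 3 were positive, and -0.027 over all genes tested, of which 60.5% were negative. For 0 of the 8 genes were the CKO and Flox libraries free of overlap, which held for 4.23% of genes tested after the filter and for 3.23% of genes without it.

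Bdnf, Gdnf, Artn and Trpv1 reached 1 FPKM in at most 1 library, and so were below the filter in both groups. Their differences were taken from a limma fit of all 19140 genes above 0 in some library. There again 0 of the 8 genes passed, against 0.0157% of genes, and 2 of 8 (Edn1 and Trpv1) had an unadjusted p under 0.05, against 12.9%. Of the 8 log2 fold changes in that fit 4 were positive, with a median of 0.010, and the median over all its genes was -0.012. The pseudocount of 1 makes differences of genes at such low levels small on this scale.

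**Figure D2:**
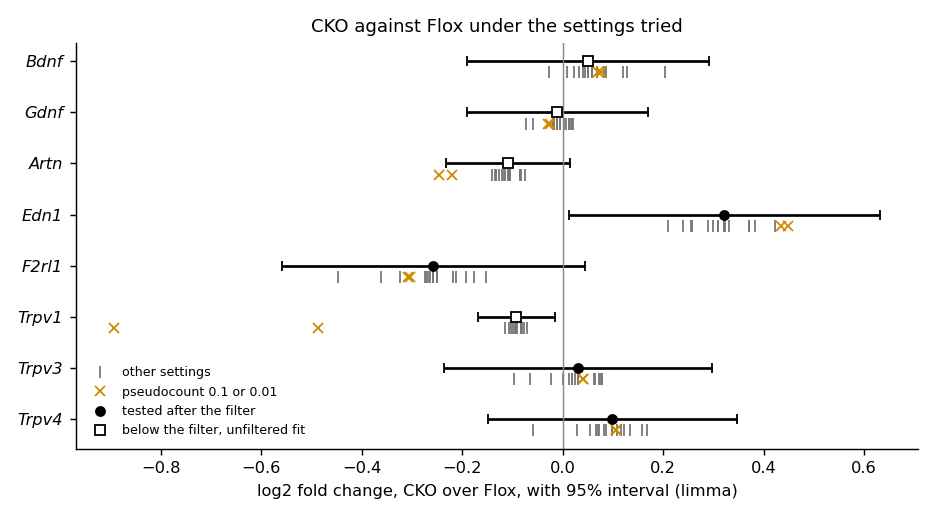
Log2 fold change of each gene, CKO over Flox, with its 95% interval from limma (circles: tested after the filter; open squares: below the filter, from the unfiltered fit), and below each the values with other pseudocounts (crosses) and under the other settings (ticks). The interval of Edn1, 0.012 to 0.63, and that of Trpv1, -0.17 to -0.016, exclude 0 before adjustment.

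Among the neurotrophic factors, Bdnf, a neurotrophin that sensitizes sensory pathways, was at 0.25, 0.42, 0.74, 0.52 and 0.93 FPKM in CKO replicates 1 to 5, against 0.43, 0.46, 0.39, 0.66 and 0.58 FPKM in Flox replicates 1 to 5. The CKO libraries held both the lowest and the highest values, and their coefficient of variation was 46.7%, against 22.3% in Flox. The log2 fold change was 0.050 (SE 0.11), with a 95% interval of -0.19 to 0.29 (limma without a filter, adjusted p = 0.888), and -0.028 without CKO replicate 5, the highest library.

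Gdnf, the founding member of the glial cell line-derived factors, was at 0.76, 1.12, 0.81, 0.63 and 0.64 FPKM in CKO, against 0.57, 0.76, 0.89, 0.87 and 0.92 FPKM in Flox. The groups covered much the same range, with the top value in CKO and the bottom value in Flox. Its log2 fold change was -0.011 (SE 0.081), with an interval of -0.19 to 0.17 (limma without a filter, adjusted p = 0.976), and its sign turned when CKO replicate 4 or 5 or Flox replicate 3, 4 or 5 was left out (0.0034 to 0.022).

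Artn encodes artemin, which acts on nociceptor endings through GFRα3. It was at 0.85, 0.62, 0.85, 0.71 and 0.62 FPKM in CKO, against 0.88, 0.80, 1.04, 0.77 and 0.83 FPKM in Flox. Of the CKO libraries 3 lay below every Flox library, and 2 Flox libraries lay above every CKO library, so the groups overlapped. The log2 fold change was -0.11 (SE 0.055), with an interval of -0.23 to 0.015 (limma without a filter, adjusted p = 0.449; exact two-sided permutation p = 0.103).

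Several receptors of these factors, though not Gfra3, were more abundant than the factors. Ntrk2, the receptor of BDNF, was at 14.6, 11.4, 10.9, 11.9 and 15.0 FPKM in CKO, against 9.51, 8.32, 10.5, 9.31 and 10.3 FPKM in Flox. Every CKO library was above every Flox library. Ntrk2 did not pass, at a log2 fold change of 0.37 (SE 0.096) (limma adjusted p = 0.139; 0.124 to 0.503 over the 20 alternatives), and its value without CKO replicate 1 was 0.33. It was the 1 of 5 tested genes of the neurotrophin system with an unadjusted p under 0.05 on the higher side, where 4.78% of all genes lay, and 0 passed.

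Ngfr, which encodes p75, averaged 1.53 ± 0.297 FPKM in CKO, against 1.98 ± 0.438 FPKM in Flox (SD, n = 5 each). The neurotrophin Ntf3 averaged 1.60 ± 0.673 and 1.38 ± 0.203 FPKM in CKO and Flox. Neither passed (limma adjusted p = 0.379 and 0.841), and for both genes the groups overlapped.

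In the GDNF system, 0 of 6 tested genes passed, and the median log2 fold change was 0.038. Gfra1, the co-receptor of GDNF, was the most abundant at 52.9 ± 7.37 FPKM in CKO, against 51.6 ± 7.42 FPKM in Flox. The kinase Ret averaged 1.36 ± 0.0622 FPKM in CKO, against 1.29 ± 0.381 FPKM in Flox, and Gfra3, the co-receptor of artemin, was below the filter at 0.664 ± 0.115 and 0.760 ± 0.227 FPKM. Gfra2, a co-receptor of neurturin, had the lowest p of the list, with 2.68 ± 0.446 FPKM in CKO against 3.76 ± 0.912 FPKM in Flox, a log2 fold change of -0.36 ± 0.13 (SE; limma adjusted p = 0.249). For Gfra4, the co-receptor of persephin, the log2 fold change was 0.055 (SE 0.096), and for Ncam1, an adhesion molecule that also binds GDNF, -0.060 (SE 0.096).

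**Figure D3:**
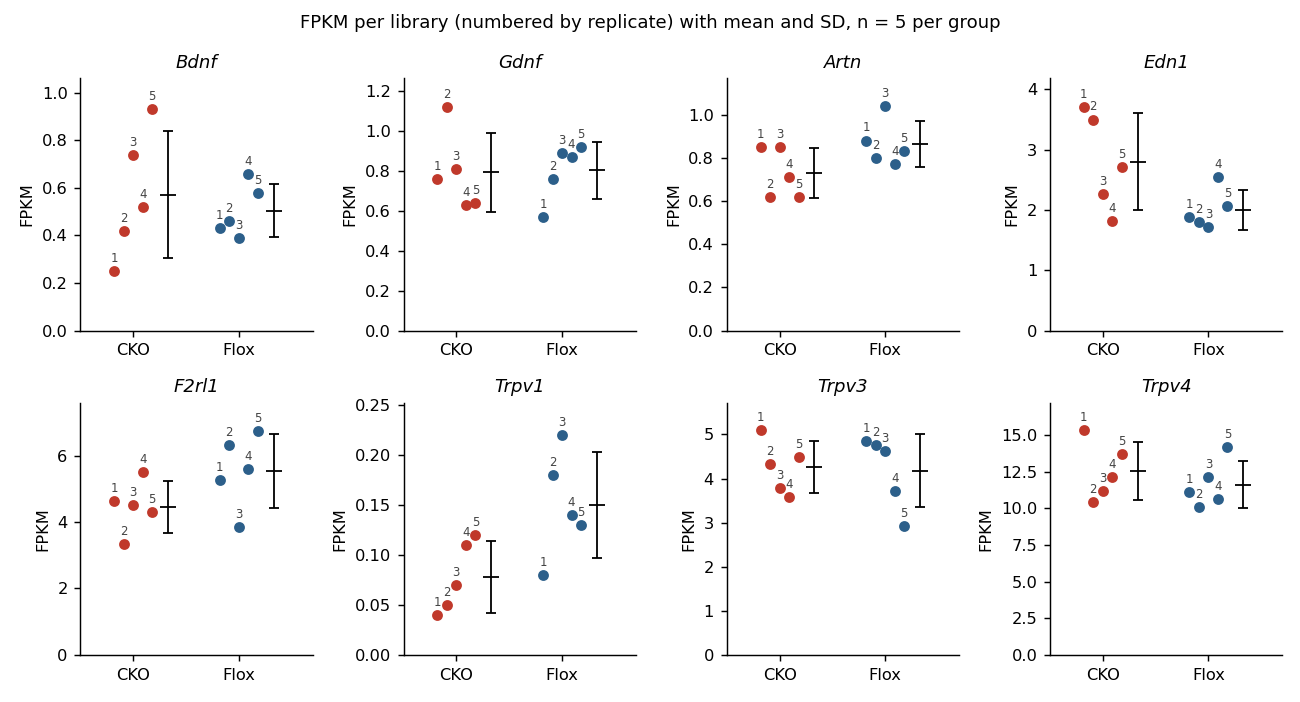
FPKM of each gene in each library (points, numbered by replicate; axes start at 0), with the mean and SD of 5 libraries beside them, CKO left of Flox. The groups overlap in all 8 panels; CKO replicates 1 and 2 are the highest for Edn1, and 4 of 5 Flox libraries are above every CKO library for Trpv1.

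Edn1 was at 3.70, 3.50, 2.27, 1.82 and 2.72 FPKM in CKO, against 1.88, 1.80, 1.72, 2.54 and 2.06 FPKM in Flox. Of the CKO libraries 3 were above every Flox library, and CKO replicates 3 and 4 lay inside the Flox range. The mean was 2.80 ± 0.798 FPKM in CKO, against 2.0 ± 0.327 FPKM in Flox (SD, n = 5 each), a log2 fold change of 0.32 (SE 0.14) with a 95% interval of 0.012 to 0.63 (limma adjusted p = 0.315, unadjusted p = 0.0429; exact two-sided permutation p = 0.0794). The highest library was CKO replicate 1, which also had the highest muscle sum. Without it the log2 fold change was 0.24 (limma adjusted p = 0.451; 0.197 to 0.735 over all alternatives), and it was 0.21 when a score of muscle genes per library entered the fit (adjusted p = 0.735). That score was 4.00 to 5.81 in CKO, against 3.30 to 3.91 in Flox, with every CKO library above every Flox library. Muscle and group can therefore not be told apart well, here or in the other fits with this score. The markers of endothelial cells, a main source of endothelin 1 in many tissues, summed over 6 genes to 106 to 138 FPKM in CKO, against 102 to 153 FPKM in Flox. The part of these cells in the level of Edn1 was not tested.

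The receptors of endothelin 1 and the enzymes Ece1 and Mme were higher in level than Edn1. The converting enzyme Ece1 averaged 41.9 ± 3.89 FPKM in CKO, against 38.1 ± 5.03 FPKM in Flox. The receptor Ednrb averaged 32.9 ± 4.46 and 30.7 ± 6.34 FPKM, and Ednra 12.1 ± 1.61 and 11.6 ± 0.834 FPKM, in CKO and Flox. The peptidase Mme, which degrades peptides of this kind, averaged 10.5 ± 2.71 FPKM in CKO, against 11.4 ± 1.96 FPKM in Flox. Of these 4 tested genes 0 passed and 0 had an unadjusted p under 0.05 in limma, with a median log2 fold change of 0.081. The other endothelin genes, Edn2 and Edn3, named here after their values were seen, were below the filter at 0.264 ± 0.101 and 0.316 ± 0.106 FPKM in CKO, against 0.324 ± 0.160 and 0.490 ± 0.172 FPKM in Flox.

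F2rl1 was at 4.63, 3.33, 4.52, 5.50 and 4.29 FPKM in CKO, against 5.26, 6.31, 3.84, 5.59 and 6.73 FPKM in Flox. All CKO values lay below the Flox median, and 3 Flox libraries lay above every CKO library, but Flox replicate 3 was lower than 4 of the CKO libraries. The log2 fold change was -0.26 (SE 0.14), with a 95% interval of -0.56 to 0.044 (limma adjusted p = 0.407; exact two-sided permutation p = 0.127). It was -0.36 without Flox replicate 3 (limma adjusted p = 0.266) and -0.45 when adjusted for the muscle score (adjusted p = 0.473; 0.266 to 0.649 over all alternatives). Keratinocyte markers, whose cells carry much of the PAR2 of skin, had a median log2 fold change of 0.049 over 6 genes. Of the 6, 5 were positive, against 39.5% of all genes tested. The part of these cells in the level of F2rl1 was not tested.

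Of the other protease receptors, F2r, which encodes the thrombin receptor PAR1 and neighbours F2rl1 on chromosome 13 in the GRCm38 annotation of RefSeq, was at 11.6, 16.4, 16.3, 15.4 and 18.2 FPKM in CKO, against 20.5, 19.8, 17.0, 22.0 and 23.9 FPKM in Flox. The groups overlapped by 1 pair of libraries, CKO replicate 5 and Flox replicate 3. F2rl2, which encodes PAR3, was at 0.83, 1.06, 1.26, 1.51 and 1.31 FPKM in CKO, against 2.28, 1.96, 2.15, 1.63 and 2.11 FPKM in Flox. Every CKO library was below every Flox library.

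The log2 fold changes were -0.39 (SE 0.12) for F2r and -0.47 (SE 0.094) for F2rl2 (limma adjusted p = 0.184 and 0.0833), and neither passed. F2rl2 passed in 1 of 20 alternatives, with array quality weights (adjusted p = 0.0490; 0.0490 to 0.463 over all of them). Without CKO replicate 1 the values were -0.29 for F2r and -0.40 for F2rl2, and with the muscle covariate -0.21 and -0.34.

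**Figure D4:**
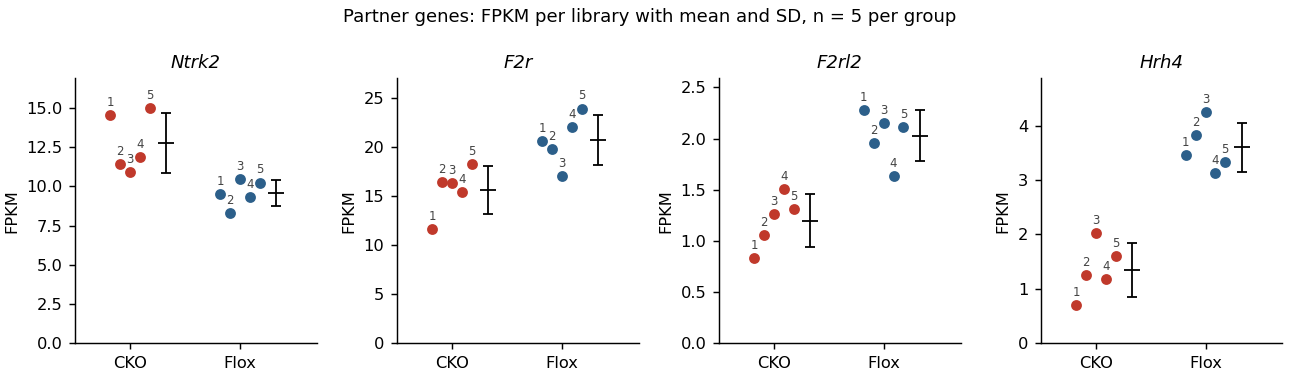
FPKM per library (points, numbered by replicate; axes start at 0) with the mean and SD of 5 libraries, CKO left of Flox, for the BDNF receptor gene Ntrk2, the protease receptor genes F2r and F2rl2, and the histamine receptor gene Hrh4. The groups do not overlap for Ntrk2 (10.9 to 15.0 against 8.32 to 10.5), F2rl2 and Hrh4, and overlap by 1 pair of libraries for F2r.

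Across the proteases, inhibitors and arrestins of this receptor system, 13 of 15 tested genes, F2r and F2rl2 included, were on the negative side (86.7%, against 60.5% of all genes tested), with a median log2 fold change of -0.13, against -0.027 over all genes. Of these 15, 0 passed and 5 had an unadjusted p under 0.05 on the lower side, where 10.3% of all genes tested lay. The proteases Tpsb2 and Ctss were on the positive side, at log2 fold changes of 0.29 and 0.10 (SE 0.19 and 0.13). The negative side also held the protease inhibitors Spink5, Spint1 and Spint2, at -0.26, -0.005 and -0.042 (SE 0.13, 0.059 and 0.12). The kallikrein Klk7, which cuts corneodesmosomes, averaged 387 ± 46.9 FPKM in CKO, against 496 ± 91.9 FPKM in Flox, and the kallikrein Klk6 averaged 287 ± 28.2 and 365 ± 68.9 FPKM. Their log2 fold changes were -0.35 and -0.33 (SE 0.13 each; limma adjusted p = 0.271 and 0.272). With the muscle covariate the values were -0.35 for Klk7 and -0.14 for Klk6.

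Trpv1, the capsaicin and heat channel, was at 0.04, 0.05, 0.07, 0.11 and 0.12 FPKM in CKO, against 0.08, 0.18, 0.22, 0.14 and 0.13 FPKM in Flox. Of the Flox libraries 4 were above every CKO library, while Flox replicate 1 lay within the CKO range. The mean was 0.078 ± 0.036 FPKM in CKO, against 0.150 ± 0.053 FPKM in Flox (SD, n = 5 each). The file gives 2 decimals, so its step of 0.01 FPKM is coarse against these values. Its log2 fold change was -0.093 (SE 0.034), with an interval of -0.17 to -0.016 (limma without a filter, adjusted p = 0.309, unadjusted p = 0.0224; exact two-sided permutation p = 0.0397). With a pseudocount of 0.01 it was -0.89, and it did not pass there either (adjusted p = 0.341; 0.277 to 0.701 over all alternatives).

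Of 10 markers of sensory neurons 6 averaged under 0.1 FPKM, while Tubb3 and Avil passed the filter. The sodium channel genes Scn10a and Scn9a averaged 0.004 and 0.006 FPKM in CKO, against 0.010 and 0.004 FPKM in Flox, and were at 0 in 5 and 6 of the 10 libraries. The markers Isl1, Prph and Snap25 averaged 0.172, 0.144 and 0.062 FPKM in CKO, against 0.054, 0.092 and 0.040 FPKM in Flox. Scn11a, Pou4f1 and Nefl averaged 0.062, 0.086 and 0.012 FPKM in CKO, against 0.054, 0.076 and 0.004 FPKM in Flox. The means of these other markers were thus higher in CKO, at levels near 0. Trpa1, a channel that works with TRPV1 in many itch neurons, averaged 0.004 FPKM in CKO and 0.008 in Flox. The summed level of the 10 markers was 14.2 to 20.3 FPKM in CKO, against 12.1 to 20.8 FPKM in Flox. Avil, an actin-binding protein gene of sensory neurons, averaged 1.14 ± 0.198 FPKM in CKO, against 1.39 ± 0.280 FPKM in Flox. Tubb3, a neuronal tubulin gene, which was 15.1 ± 2.59 FPKM in CKO, against 14.9 ± 2.99 FPKM in Flox, made up most of that sum. Markers of Schwann cells, the glia of skin nerves, summed to 138 to 199 FPKM in CKO, against 147 to 187 FPKM in Flox.

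Trpv3, the warmth channel of keratinocytes that lies beside Trpv1 on chromosome 11 in that annotation, was at 5.09, 4.32, 3.79, 3.59 and 4.49 FPKM in CKO, against 4.84, 4.76, 4.63, 3.72 and 2.93 FPKM in Flox. The lowest library was Flox replicate 5 and the highest CKO replicate 1, and the rest were mixed. The log2 fold change was 0.031 (SE 0.12), with a 95% interval of -0.24 to 0.30 (limma adjusted p = 0.941). Its sign turned without CKO replicate 1 (-0.024), without Flox replicate 5 (-0.064) and with array quality weights (-0.096).

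Trpv4, a channel gated by osmotic and mechanical stimuli and by warmth, was at 15.4, 10.4, 11.2, 12.1 and 13.7 FPKM in CKO, against 11.1, 10.1, 12.2, 10.6 and 14.2 FPKM in Flox. CKO replicate 1 was above all Flox libraries and the other CKO libraries lay inside the Flox range. Its log2 fold change was 0.099 (SE 0.11), with a 95% interval of -0.15 to 0.35 (limma adjusted p = 0.734). It was 0.028 without CKO replicate 1 and -0.060 when adjusted for the muscle score.

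Of 16 other TRP channel genes 6 were tested and 0 passed. Trpv2, a channel of macrophages and other leukocytes, was at a level like that of Trpv4, 12.1 ± 2.86 FPKM in CKO, against 12.0 ± 1.84 FPKM in Flox. The lysosomal channels Mcoln3 and Mcoln1 had the lowest p. Mcoln3 averaged 1.09 ± 0.0870 FPKM in CKO, against 1.40 ± 0.0829 FPKM in Flox without overlap, a log2 fold change of -0.20 ± 0.055 (SE; limma adjusted p = 0.156). Mcoln1 averaged 13.7 ± 1.14 and 12.1 ± 1.22 FPKM in CKO and Flox, a log2 fold change of 0.17 ± 0.075 (SE; limma adjusted p = 0.328). Trpm4 and Trpm2, channels gated by calcium and by oxidative signals, did not pass, at log2 fold changes of -0.081 and 0.10 (SE 0.079 and 0.21).

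The wider itch and nerve guidance genes were described from lists of 116 genes in all, of which 115 were in the table and 75 were tested. In these 75 the only gene to pass was Hrh4, the histamine H4 receptor, on the lower side, where 0.0607% of all genes tested passed. Hrh4 fell to 0.69, 1.25, 2.02, 1.18 and 1.60 FPKM in CKO, against 3.46, 3.83, 4.25, 3.13 and 3.33 FPKM in Flox (log2 fold change -0.99 (SE 0.14), limma adjusted p = 0.0463). Every CKO library was below every Flox library. It passed in 6 of 20 alternatives, with adjusted p of 0.00858 to 0.237 over all of them. Basophil markers were lower in the same samples, as given above, and their part in the level of Hrh4 was not tested.

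Over the 75 genes, 4 (5.33%) had an unadjusted p under 0.05 on the higher side, against 4.78% of all genes tested, and 14 (18.7%) on the lower side, against 10.3%. The median log2 fold change of the 75 was -0.040, and 60.0% were negative, close to the 60.5% of all genes tested. CKO and Flox libraries were free of overlap for 7 of the 75, or 9.33%, against the 4.23% of all genes tested. They were Ntrk2, F2rl2, Mcoln3, Hrh4, Il4, Osmr and L1cam.

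**Figure D5:**
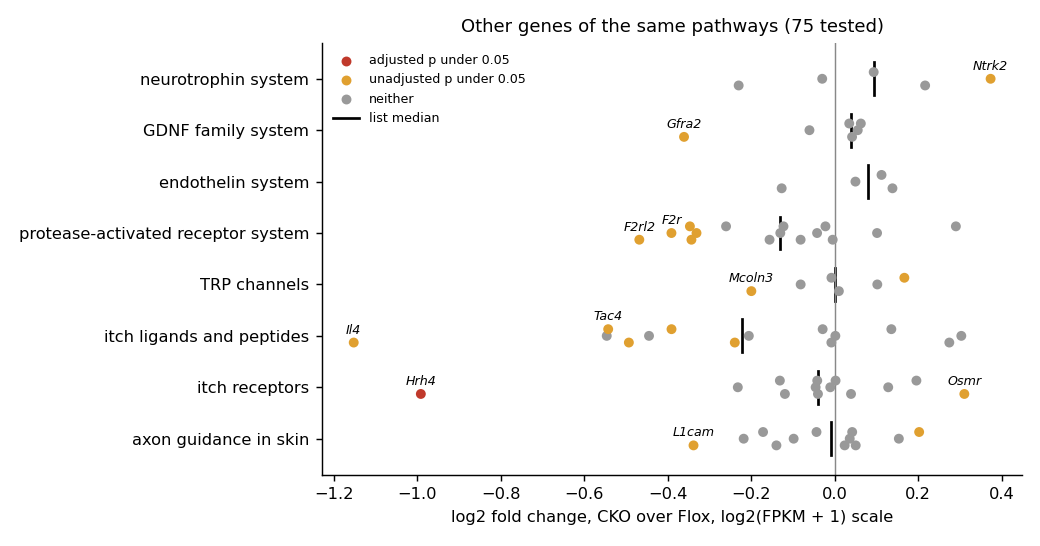
Log2 fold change, CKO over Flox, of the 75 tested genes of the same pathways by list (points; red: adjusted p under 0.05, amber: unadjusted p under 0.05, grey: neither), with the list median as a bar. Only Hrh4, at -0.99, passed; the median was lowest for itch ligands, at -0.22, and the protease receptor system, at -0.13.

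Among 14 tested itch ligands and peptides 10 (71.4%) were on the negative side, against 60.5% of all genes tested, and 0 passed. The cytokine gene Il4 had the lowest p of the list (log2 fold change -1.15 (SE 0.24), limma adjusted p = 0.0845). Tac4, a tachykinin gene of immune cells, averaged 1.05 ± 0.407 FPKM in CKO, against 1.99 ± 0.653 FPKM in Flox, a log2 fold change of -0.54 ± 0.18 (SE; limma adjusted p = 0.211). Alox5, the first enzyme of leukotriene synthesis, averaged 14.8 ± 1.67 FPKM in CKO, against 17.6 ± 2.30 FPKM in Flox, and Il13, a type 2 cytokine gene, had a log2 fold change of -0.49 (SE 0.21). Neither passed (limma adjusted p = 0.309 and 0.310).

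Of 13 tested itch receptors 61.5% were negative, near the 60.5% of all genes tested. Osmr, the subunit that the receptors of oncostatin M and IL-31 share, averaged 20.0 ± 2.13 FPKM in CKO, against 15.9 ± 1.43 FPKM in Flox without overlap, a log2 fold change of 0.31 ± 0.081 (SE; limma adjusted p = 0.146). Its partner Il31ra, named here after its values were seen, was below the filter and had the opposite sign, at 0.84, 0.62, 0.60, 0.81 and 0.76 FPKM in CKO, against 1.19, 1.40, 0.77, 1.24 and 1.56 FPKM in Flox (limma without a filter, adjusted p = 0.179). Ltb4r1, a receptor of leukotriene B4, and Tacr1, the receptor of substance P, did not pass, at log2 fold changes of -0.12 and -0.23 (SE 0.058 and 0.11).

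Among 12 tested genes of axon guidance 6 (50.0%) were on the negative side, against 60.5% of all genes tested, and 0 passed. L1cam, an adhesion molecule of axons, was at 4.44, 3.57, 4.63, 4.84 and 4.30 FPKM in CKO, against 5.56, 5.47, 6.17, 5.08 and 6.56 FPKM in Flox. Every CKO library was below every Flox library (log2 fold change -0.34 (SE 0.081), limma adjusted p = 0.129). Sema3a, a repellent that keeps nerve fibres out of the epidermis, averaged 6.09 ± 0.752 FPKM in CKO, against 5.15 ± 0.455 FPKM in Flox, a log2 fold change of 0.20 ± 0.080 (SE; limma adjusted p = 0.277). The attractant Ntn1 and the semaphorin receptor Nrp1 did not pass, at log2 fold changes of 0.15 and -0.17 (SE 0.074 and 0.10).

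The genes whose log2(FPKM + 1) followed the 4 tested members most closely over the 10 libraries are given as a description. They were sought among the tested genes, leaving out symbols without a gene name, such as Gm, LOC and Rik numbers. The best of so many genes correlates highly by selection. For Edn1 they were Tbc1d15, Nus1 and Rcbtb2 (Pearson r of 0.94, 0.93 and 0.93). For F2rl1 they were Aggf1, Polr2m and Eri1 (r of 0.94, 0.92 and 0.91). For Trpv3 they were Llph-ps2, Mrps7 and Pex11a (r of 0.97, 0.94 and 0.93), and for Trpv4 Fxr2, Timp2 and Fam89b (r of 0.97, 0.97 and 0.96). Each was more abundant than the gene it followed, and 0 of the 12 passed the test between CKO and Flox (limma).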

How the data were processed

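Poly(A) RNA of 10 mouse skin samples was sequenced as single-end reads, per the labels' protocols, and the labels gave 5 CKO and 5 Flox. The series text first speaks of 6 samples and then of 5 in each group, and all 10 labelled samples were used. The authors deposited 1 table of FPKM per gene, to 2 decimals, per the file headers. Alignment used HISAT (per the submitters' processing notes). Not given in the sources used here are the read counter, the build, the annotation and all versions, so no coordinates are printed.

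Main test: limma-trend (limma 3.58.1, R 4.3.3, two-sided) on log2(FPKM + 1) of 13186 genes (1 FPKM or more in 5 or more libraries), with Benjamini-Hochberg adjustment over all of them and a threshold of 0.05. Genes below the filter were read from the same fit of all 19140 genes above 0 in any library. Exact permutation tests enumerated all assignments of libraries to groups, with 0.00794 as the smallest p. The fit was tested on simulated data, with planted changes larger than those measured for the 8 genes on this scale. That test does not show whether changes as small as theirs would be called. Alternatives were pseudocounts of 0.1 and 0.01, no filter or one at 0.1 FPKM, array quality weights, quantile normalization, equal library totals, a replicate block, the mean log2 level of 8 muscle genes as a covariate, robust eBayes, and each library left out.

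The 8 genes and the lists were chosen with earlier results of these data known. Named were the 8 genes, their partners, genes that passed, up to 4 genes of lowest p per list and 3 genes most alike each tested member. Other genes, and the choice of which non-members to show per library, were taken after values were seen. A partner gene is not reported here.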

Additional observations from a re-analysis of the deposited data

How the results depend on the processing

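No gene of the 8 passed under any of the alternatives, with adjusted p of 0.197 or more. Edn1 (0.21 to 0.45), F2rl1 (-0.45 to -0.15), Artn (-0.25 to -0.075) and Trpv1 (-0.89 to -0.071) kept their sign throughout. The values farthest from 0 for Edn1, Artn and Trpv1 came from the pseudocount of 0.01, which changes the scale of the log2 fold change. Bdnf spanned -0.028 to 0.13, Gdnf -0.073 to 0.022 and Trpv3 -0.064 to 0.079 when 1 library was left out. Gdnf was 0.014 with quantile normalization and 0.018 with the muscle covariate, Trpv3 was -0.096 with array quality weights, and Trpv4 was -0.060 with the muscle covariate. The count of pathway genes that fell, 1 (Hrh4), was 0 with a pseudocount of 0.1 or 0.01, without a filter, with a filter at 0.1 FPKM, with the replicate block and with the muscle covariate, 2 with array quality weights (F2rl2 besides), and 0 to 1 when 1 library was left out: 0 without CKO replicate 2, 4 or 5 or any Flox replicate. Over all genes 6 passed on the higher and 8 on the lower side. These counts were 2 and 6 with equal library totals, 7 and 12 with quantile normalization, 30 and 60 with array quality weights, 1 and 2 without a filter or with one at 0.1 FPKM, and 0 to 11 and 0 to 15 when 1 library was left out. They were 0 and 0 with the muscle covariate (limma; 1271 genes with an unadjusted p under 0.05) and with the replicate block (1911 such genes). The muscle score was higher in every CKO library than in every Flox library. A loss of calls in that fit therefore cannot be assigned to muscle. Same-numbered libraries did not deviate together (correlations of -0.21 to 0.21, and 1 of 10 libraries closest to its own number). The values thus gave no sign that the numbers pair libraries, but weak correlations cannot exclude a pairing. The causes of these changes were not tested. The 2-decimal FPKM limit what can be read for Trpv1 and other genes near 0.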

Other observations

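Receptors of the Mrgpra family, which detect pruritogens such as chloroquine and peptides, were looked at after the value of Mrgpra3 was seen in the list of itch receptors. Mrgpra3 was at 0.04, 0.15, 0.06, 0.09 and 0.05 FPKM in CKO, against 0.27, 0.33, 0.59, 0.25 and 0.50 FPKM in Flox. Mrgpra9 was at 0.09, 0.05, 0, 0.10 and 0.23 FPKM in CKO, against 0.33, 0.45, 0.50, 0.42 and 0.33 FPKM in Flox. Mrgpra1 was listed at 0 in all CKO libraries, against 0.10, 0.09, 0.14, 0.05 and 0.11 FPKM in Flox. For these 3 genes every CKO library was below every Flox library, where 3.23% of all 19140 genes above 0 in some library had groups free of overlap in either direction, and the groups of Mrgpra4 (0.328 ± 0.161 FPKM in CKO and 0.666 ± 0.170 in Flox, n = 5 each) overlapped. None passed (limma without a filter, adjusted p = 0.0950 for Mrgpra3, 0.0597 for Mrgpra9, 0.0597 for Mrgpra1 and 0.203 for Mrgpra4). All 4 averaged below 1 FPKM in both groups and are close paralogs, and how shared reads were assigned is not given in the sources used here.

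Mrgpra2a had the opposite sign, at 0.40, 1.25, 1.05, 0 and 0.35 FPKM in CKO, and was listed at 0 in all Flox libraries (limma without a filter, adjusted p = 0.234), while its near copy Mrgpra2b averaged 1.42 ± 0.870 FPKM in CKO libraries and 1.13 ± 0.644 FPKM in Flox libraries. The groups overlapped for all 5 Mrgprb genes in the table. Mrgprb1 averaged 7.49 ± 1.27 FPKM in CKO libraries and 6.91 ± 0.806 FPKM in Flox libraries, and Mrgprb2 2.52 ± 0.572 and 2.63 ± 0.635 FPKM. Mrgprb8 averaged 0.592 ± 0.0893 FPKM in CKO libraries and 0.478 ± 0.0901 FPKM in Flox libraries, Mrgprb13 1.20 ± 0.502 and 0.838 ± 0.215 FPKM, and Mrgprb3 0.128 ± 0.179 and 0.022 ± 0.049 FPKM, and none of the 5 passed (limma; adjusted p = 0.411 or more). Lower values were not confined to Mrgpra genes: the related gene Mrgprx1 averaged 0.762 ± 0.151 FPKM in CKO libraries and 1.12 ± 0.275 FPKM in Flox libraries. Mrgprx2 averaged 0.924 ± 0.239 and 0.750 ± 0.118 FPKM. For both the groups overlapped, and neither passed (limma without a filter, adjusted p = 0.317 and 0.552). The sum of 5 basophil markers, lower in the same CKO samples, is given above, and its part in the Mrgpra and Mrgprx1 values was not tested.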
